A study of Mus musculus with 6 samples.

Results

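Efferocytosis is the removal of dying cells by phagocytes. A set of 8 of its genes was followed in peritoneal macrophages labelled WT or knockout (KO) for the transcription factor FOXO3. They were named by symbol as receptors, bridging ligands and the adaptor of this process, and all 8 were found among the 54648 gene symbols measured and were among the 15608 that passed the filter on low counts. Dying cells expose phosphatidylserine on their surface. Bridging proteins such as Gas6, protein S (the product of Pros1) and Mfge8 bind this lipid and link the dying cell to receptors on the phagocyte. Gas6 engages the TAM receptor tyrosine kinases Tyro3, Axl and Mertk, and protein S engages Tyro3 and Mertk. Mfge8 engages integrins, Cd300lf binds phosphatidylserine directly, and Elmo1 works with Dock proteins to activate Rac during engulfment. Macrophages recruited into an inflamed peritoneal cavity are a classical setting for this clearance, which limits inflammation.

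Total RNA of peritoneal cells was sequenced in 3 WT and 3 FOXO3 KO libraries from mice of the C57BL/6 strain, 6 to 8 weeks old, of both sexes in the study's methods, which did not tie a sex to a library. All mice of both groups received 3% thioglycollate, an irritant that recruits monocytes which mature into macrophages, and cells were harvested after 4 days, with no sorting step named. FOXO3 KO mice were homozygous, WT littermates served as controls, the sources used here name no Cre or cell type restriction for the deletion, and they do not say whether a library came from 1 mouse or a pool. If libraries of a group are not separate animals, the p-values measure technical spread only.

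Foxo3 itself was measured at 117, 107 and 73.1 CPM (counts scaled to the library total after edgeR's TMM factors) in WT 1, 2 and 3, at 4.71 and 4.29 CPM in FOXO3 KO 1 and 3, and at 104 CPM in the library labelled FOXO3 KO 2. The library labelled FOXO3 KO 2 thus lay within the WT range of the targeted gene, so the main results are also given without it. For Foxo3 the log2 fold change of FOXO3 KO over WT was -1.40 over all 6 libraries (SE 1.22, adjusted p = 0.859 by edgeR) and -4.46 without that library (SE 0.29, adjusted p = 0.105 by edgeR). Library totals were between 28083393 and 36424117 counts. Summed over 9 macrophage markers (Lyz2 and Itgam the most abundant), the libraries held between 13082 and 17692 CPM. WT 3 stood apart by 8 genes of resident peritoneal macrophages (Prg4 and Alox15 the most abundant, with Timd4 and the transcription factor Gata6), which summed to 6564 CPM there and to between 205 and 639 CPM in the other 5 libraries. Its B cell markers (Ighm and Ms4a1 the most abundant) also had the highest sum, 5771 CPM against 361 to 1503 CPM elsewhere, as did its T cell markers (128 CPM against 18.9 to 49.5 CPM), mast cell markers (831 CPM against 107 to 305 CPM) and dendritic cell markers (248 CPM against 62.5 to 138 CPM). The WT 3 dendritic cell sum was mostly Ccr7 (119 CPM, 9.78 to 27.8 CPM elsewhere) and Dpp4 (76.3 CPM, 14.7 to 34.6 CPM elsewhere). Xcr1 (0.699 CPM), Clec9a (2.66 CPM) and Itgae (0.978 CPM) were lowest in WT 3, and Flt3, Zbtb46 and Cd209a were highest in FOXO3 KO 3. The library labelled FOXO3 KO 2 had the highest sums of fibroblast markers (484 CPM against 41.4 to 170 CPM) and mesothelial markers (44.3 CPM against 6.21 to 19.0 CPM). Eosinophil markers summed to between 37.4 and 95.0 CPM. In WT 3 most of that sum was Il5ra (80.2 CPM, 4.71 to 18.4 CPM elsewhere). Ccr3 (8.92 CPM) and Siglecf (3.72 CPM) were lowest there. Red blood cell genes reached 117 and 182 CPM in FOXO3 KO 1 and 3 against at most 26.95 CPM elsewhere. No marker of these lists was at 0 in all libraries. In bulk RNA, fewer cells of a type and less RNA per cell cannot be told apart.

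All 8 genes are protein-coding, and their positions are given on GRCm38 (mm10) from GENCODE M21. Mertk lies on chromosome 2 at 128698956 to 128802894 (plus strand), Tyro3 on chromosome 2 at 119797733 to 119818104 (plus), and Axl on chromosome 7 at 25757273 to 25788705 (minus). Of the ligands, Mfge8 lies on chromosome 7 at 79133768 to 79149060 (minus), Gas6 on chromosome 8 at 13465374 to 13494490 (minus) and Pros1 on chromosome 16 at 62854307 to 62929346 (plus). Cd300lf lies on chromosome 11 at 115116214 to 115133992 (minus) and Elmo1 on chromosome 13 at 20090596 to 20608353 (plus). Cd300lf overlaps Rab37 on the opposite strand, which reached at most 6.93 CPM in any library, and Gas6 overlaps Tmem255b, which had at most 1 count. Whether counting used the strand is not stated, so reads of Cd300lf and Rab37 may not be fully separate. The deposited values of Cd300lf and Elmo1 were not whole within 0.01 in any library and those of Mfge8 in 3 of 6, whereas the other 5 genes had whole values throughout.

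RefSeq start-site windows (250 bases before to 50 after the start, GRCm38.p6) were available for all 8 genes, 9 windows in all because Elmo1 has a pair. The FoxO core was searched as GTAAACA and a myeloid PU.1 site as GAGGAAGT, each on both strands. These letters do not overlap each other. The FoxO core was present in 1 of the 9 windows, that of Axl, and in 3.65% of 32851 windows genome-wide, while the PU.1 letters were present in 2 of the 9 and in 3.20% genome-wide. The windows with a match are printed because they carry the searched letters, and that of Gas6 because it was the gene with separate groups below. Capitals mark the match, and all are written 5′ to 3′ on the strand of the gene.
Axl, chr7:25788684-25788983 (minus strand), with the FoxO core on the opposite strand starting at base -229: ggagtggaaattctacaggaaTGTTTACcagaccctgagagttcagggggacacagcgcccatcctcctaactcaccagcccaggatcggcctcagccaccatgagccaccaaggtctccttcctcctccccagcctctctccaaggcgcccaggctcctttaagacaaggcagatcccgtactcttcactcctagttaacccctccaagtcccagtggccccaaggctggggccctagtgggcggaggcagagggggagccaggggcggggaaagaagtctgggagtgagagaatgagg
Gas6, chr8:13494486-13494785 (minus strand), with no match: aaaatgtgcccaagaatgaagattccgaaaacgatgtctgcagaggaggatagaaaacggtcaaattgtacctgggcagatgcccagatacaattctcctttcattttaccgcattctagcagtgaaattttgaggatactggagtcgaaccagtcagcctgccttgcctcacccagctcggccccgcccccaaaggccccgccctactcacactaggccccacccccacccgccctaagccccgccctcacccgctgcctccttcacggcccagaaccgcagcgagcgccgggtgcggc
Cd300lf, chr11:115133943-115134242 (minus strand), with the PU.1 letters starting at base 1 of the transcript: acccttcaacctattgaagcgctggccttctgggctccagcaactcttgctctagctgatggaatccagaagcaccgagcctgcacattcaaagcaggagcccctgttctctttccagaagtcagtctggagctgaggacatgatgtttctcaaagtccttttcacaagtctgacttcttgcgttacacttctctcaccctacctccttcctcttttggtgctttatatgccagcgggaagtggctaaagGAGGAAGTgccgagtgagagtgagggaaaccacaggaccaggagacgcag
Elmo1, chr13:20090257-20090556 (plus strand), with the PU.1 letters starting at base 39: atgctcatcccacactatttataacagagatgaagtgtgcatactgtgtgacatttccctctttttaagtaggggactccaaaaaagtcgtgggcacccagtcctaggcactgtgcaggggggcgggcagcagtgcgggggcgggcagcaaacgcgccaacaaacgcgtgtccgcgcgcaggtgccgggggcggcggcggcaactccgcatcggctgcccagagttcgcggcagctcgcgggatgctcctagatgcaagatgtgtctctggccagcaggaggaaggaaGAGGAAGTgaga
A match is a description of these letters and not a measured binding site.

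To compare levels between genes, CPM were divided by the kilobases of annotated exon, merged over all annotated transcripts. This length was 12580 bases for Elmo1 against 2548 to 6198 bases for the others. The order of the genes depends on it, and which transcripts were expressed was not tested. On this scale, the bridging ligand Mfge8 was the highest of the 8 by its median over the 6 libraries, at 121 CPM per kilobase (39.8 to 159), and was above Cd300lf in all 6. Cd300lf (median 43.3 CPM per kilobase, 16.9 to 60.6), Pros1 (41.2, 36.4 to 64.2) and Mertk (34.4, 22.2 to 40.9) followed with overlapping ranges, and Pros1 was above Mertk in 4 of 6 libraries. Axl (16.1, 8.53 to 24.2) and Gas6 (15.2, 3.64 to 23.2) also overlapped. Elmo1 was at 7.51 CPM per kilobase with a narrow range of 6.57 to 8.12. Tyro3 was far below all others, at 0.0577 (0.0171 to 0.0992), and rested on 3 to 22 counts per library. Of the summed TAM receptor level per kilobase, Mertk made up 62.3% to 74.9%, Axl 25.1% to 37.6% and Tyro3 0.0303% to 0.322%. The Mertk to Axl ratio was 2.08, 2.66 and 2.603 in WT 1 to 3 and 2.99, 1.66 and 1.77 in FOXO3 KO 1 to 3, so the groups overlapped. Mertk was therefore the main TAM receptor transcript in each of the 6 libraries, with Axl present and Tyro3 close to undetected.

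**Figure D1:**
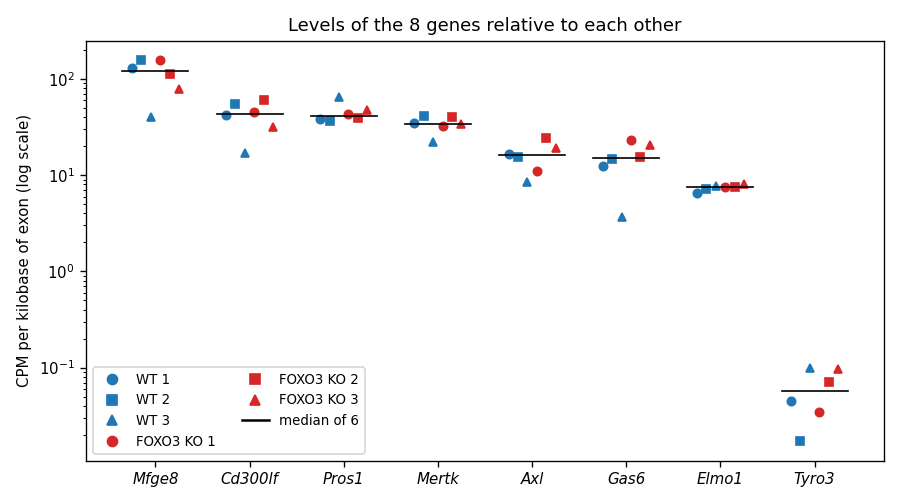
CPM per kilobase of annotated exon (vertical, log scale) of the 8 genes, ordered by their median over the 6 libraries (black line); blue points are WT and red points FOXO3 KO libraries, with a shape for each replicate. Mfge8 had the highest median (121) and Tyro3 the lowest (0.0577), and the WT 3 triangle lay lowest for Mfge8, Cd300lf, Mertk, Axl and Gas6.

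The comparison asked which transcripts differ between libraries labelled FOXO3 KO and WT, of which FOXO3 KO 2 held Foxo3 at the WT level. None of the 8 genes passed an adjusted p under 0.05 by the quasi-likelihood test of edgeR with all 6 libraries, where 0.0% of the 15608 genes tested passed. None reached an unadjusted p under 0.05 either, against 5.68% of all genes. DESeq2 called 0 of the 8 against 0.826% of all genes, with 0 at an unadjusted p under 0.05 against 8.28%. With limma-voom, 0 of the 8 and 0 of all 15608 genes were called. The 3 FOXO3 KO values all lay above the 3 WT values for 1 of the 8 genes, Gas6, against 7.0% of all genes tested, and all lay below for 0, against 5.36%. By the sign of the fitted fold change, 7 of 8 were higher in FOXO3 KO, against 48.8% of all genes, with a median log2 fold change of 0.20 (all genes: -0.0073). That majority did not hold without WT 3 and the library labelled FOXO3 KO 2. Without WT 3, 5 of 8 were higher (50.7% of all genes), and without both libraries 3 of the 7 then tested (48.5% of all genes), with a median of -0.09. Without the library labelled FOXO3 KO 2 alone, 7 of 8 stayed higher (47.6% of all genes), with a median of 0.13.

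None of the 3 smaller sets of libraries described here gave a called member. Without the library labelled FOXO3 KO 2, 0 of the 8 had an unadjusted p under 0.05 (4.3% of all genes did), and the FOXO3 KO values lay above for 1 (11.0%) and below for 0 (9.23%). Without WT 3, 1 of the 8, Gas6, had an unadjusted p under 0.05 (8.41% of all genes did), and the FOXO3 KO values lay above for 3 (13.5%) and below for 0 (11.9%). Without both, 0 of 7 were called (0.0256% of all genes were) and 2, Gas6 and Pros1, had an unadjusted p under 0.05 (8.87%). In that set the FOXO3 KO values lay above for 3 (Gas6, Pros1 and Elmo1, against 19.6% of all genes) and below for 1 (Mertk, against 18.4%). With a covariate for a split by Xist (WT 3 and FOXO3 KO 3 against the others), Gas6 alone of the 8 had an unadjusted p under 0.05 (10.3% of all genes did).

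**Figure D2:**
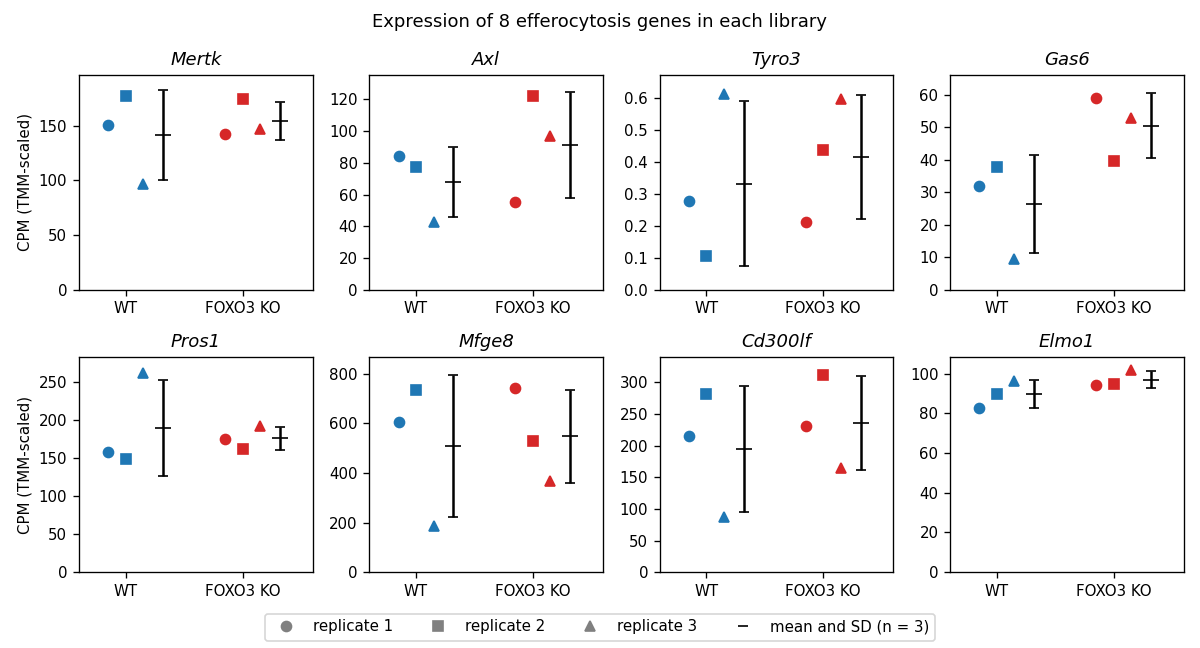
CPM of the TMM-scaled library (vertical, from 0) of each of the 8 genes in the 3 WT (blue) and 3 FOXO3 KO (red) libraries, a shape for each replicate, with the mean and SD (n = 3) in black. Gas6 alone has all FOXO3 KO points (39.5 to 59.0) above all WT points (9.28 to 37.7), and the WT 3 triangle is the lowest point for Mertk, Axl, Gas6, Mfge8 and Cd300lf.

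Of the TAM receptors, Mertk, which mediates much of the uptake of apoptotic cells by macrophages, was at 151, 177 and 96.2 CPM in WT 1, 2 and 3 and at 142, 174 and 147 CPM in FOXO3 KO 1, 2 and 3. The FOXO3 KO values lay inside the WT range, whose lowest point was WT 3. Means were 141 ± 41.4 CPM (SD, n = 3) for WT against 154 ± 17.2 CPM (SD, n = 3) for FOXO3 KO. The log2 difference, that is the log2 fold change of FOXO3 KO over WT, was 0.13 (SE, standard error, 0.23, adjusted p = 0.912 by edgeR), 0.03 without the library labelled FOXO3 KO 2 and -0.08 without WT 3. Axl, a TAM receptor that prefers Gas6 as its ligand and is induced in inflammation, varied more. It was at 84.1, 77.6 and 42.9 CPM in WT and at 55.2, 122 and 96.6 CPM in FOXO3 KO. FOXO3 KO 1 lay within the WT range while the other two lay above it. The highest value belonged to the library labelled FOXO3 KO 2, which held Foxo3 at the WT level and the most fibroblast marker RNA, whose part in the Axl value was not tested. For Axl the log2 difference came to 0.42 (SE 0.36, adjusted p = 0.859 by edgeR), 0.15 without that library, 0.18 without WT 3 and -0.09 without both. Tyro3, a TAM receptor best known in the nervous system, had 10, 3 and 22 counts in WT and 6, 12 and 20 in FOXO3 KO. A difference between the groups was not detectable at these counts (log2 difference 0.31, SE 0.67, adjusted p = 0.924 by edgeR), and its sign depended on the libraries. The value was 1.09 without WT 3, -0.0833 without WT 2, -0.05 without FOXO3 KO 3 and 0.28 without the library labelled FOXO3 KO 2.

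Gas6, a vitamin K-dependent ligand of all TAM receptors, was the gene whose groups were separate. It was at 31.9, 37.7 and 9.28 CPM in WT 1, 2 and 3 (1150, 1068 and 332 counts) and at 59.0, 39.5 and 52.8 CPM in FOXO3 KO 1, 2 and 3 (1665, 1083 and 1761 counts). The gap was narrow between WT 2 and the library labelled FOXO3 KO 2, and wide for FOXO3 KO 1 and 3. FOXO3 KO 1 and 3 were the libraries with little Foxo3. They also had the highest sums of neutrophil markers (467 and 386 CPM) and red blood cell genes (117 and 182 CPM). The part of each in the Gas6 values was not tested. Means were 26.3 ± 15.002 CPM (SD, n = 3) for WT against 50.4 ± 9.95 CPM (SD, n = 3) for FOXO3 KO. In log2 units the groups differed by 0.94 (SE 0.49, adjusted p = 0.839 by edgeR), so it did not pass the test. It was 1.09 without the library labelled FOXO3 KO 2 (SE 0.57, adjusted p = 0.994 by edgeR) and 0.55 without WT 3 (SE 0.18, adjusted p = 0.537 by edgeR). Without both it was 0.69 (SE 0.13, adjusted p = 0.242 by edgeR). With the Xist split as a covariate (WT 3 and FOXO3 KO 3 against the others) it was 1.14 (SE 0.44, adjusted p = 0.475 by edgeR). The direction was the same in all 16 alternatives, which share most of their libraries.

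No marker of another cell type passed the test, which 0.0% of the 15608 genes passed, so this count does not set the markers apart. The summed marker levels are given beside Gas6. The 8 fibroblast markers (Col1a2 and Col3a1 the most abundant, 6 of 6 tested higher in FOXO3 KO, 0 of them past the test) summed to 76.4, 53.5 and 41.4 CPM in WT and to 93.9, 484 and 170 CPM in FOXO3 KO, without overlap. Col1a1, Col1a2, Dcn and Pdgfra had all FOXO3 KO values above WT, against 7.0% of all genes tested. Col3a1 overlapped (13.8 to 29.2 CPM in WT, 24.4 to 174 CPM in FOXO3 KO), as did Pdgfrb, Lum and Dpt, each at most 1.90 CPM. The library with the highest fibroblast sum had the lowest Gas6 of the 3 FOXO3 KO libraries. The 8 mesothelial markers (Wt1 and Krt19 the most abundant, 5 of 7 tested higher, 0 past the test) summed to 6.21 to 13.5 CPM in WT and 13.1 to 44.3 CPM in FOXO3 KO, with overlap. Wt1 (1.17 to 1.83 CPM in WT, 3.61 to 13.2 CPM in FOXO3 KO), Krt19, Upk3b, Lrrn4 and Upk1b had all FOXO3 KO values above WT. Of all genes tested 7.0% did. Krt8 and Krt18 overlapped, both highest in WT 3 (7.02 and 2.01 CPM), as did Msln near 0. The 10 neutrophil markers (Csf3r and S100a9 the most abundant, 7 of 7 tested higher, 0 past the test) summed to 176, 195 and 126 CPM in WT and to 467, 193 and 386 CPM in FOXO3 KO. These sums overlapped, and within each group the libraries stood in the same order as for Gas6. S100a9 was at 0.471, 5.61 and 0.252 CPM in WT and at 164, 6.93 and 117 CPM in FOXO3 KO, S100a8 at 7.89, 11.3 and 2.40 CPM against 83.2, 12.9 and 59.8 CPM, and Cxcr2 at 0.886, 0.882 and 0.587 CPM against 18.7, 2.23 and 14.4 CPM. These 3 neutrophil markers and Csf3r (115.7 to 138.9 CPM in WT, 139.4 to 163.9 CPM in FOXO3 KO) had separate groups, with FOXO3 KO above. Of all genes tested 7.0% had this order. For each of these markers the lowest FOXO3 KO value was that of the library labelled FOXO3 KO 2, and for Csf3r the groups nearly touched. Mmp8 overlapped, at 12.2, 15.9 and 3.08 CPM in WT against 18.4, 14.6 and 11.9 CPM in FOXO3 KO, as did Retnlg and Ltf. Ly6g was at most 0.120 CPM in any library and at 0 in WT 2 and WT 3. In the resident peritoneal macrophage, B cell, T cell and mast cell lists 0 of 8 genes each were higher in FOXO3 KO. WT 3 had the highest sum of each of these lists, and among the other libraries the sums overlapped between the groups. For the resident macrophage genes they were 302 and 205 CPM in WT 1 and 2 against 263, 639 and 340 CPM in FOXO3 KO. The part of these cells in the Gas6 values was not tested.

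Pros1, the other vitamin K-dependent TAM ligand, which also circulates as an anticoagulant cofactor, was at 157, 149 and 262 CPM in WT and at 175, 162 and 192 CPM in FOXO3 KO. WT 3 was the highest library for Pros1, the reverse of its place for Gas6. The log2 difference was -0.10 (SE 0.24, adjusted p = 0.928 by edgeR) and turned to 0.21 without WT 3 (SE 0.10, adjusted p = 0.625 by edgeR), where all FOXO3 KO values lay above both WT values. It was -0.04 without the library labelled FOXO3 KO 2. The Gas6 to Pros1 ratio per kilobase, which does not depend on library scaling, was 0.324, 0.407 and 0.0568 in WT and 0.541, 0.391 and 0.441 in FOXO3 KO. The ratio in the library labelled FOXO3 KO 2 lay between those of WT 1 and WT 2, so the groups overlapped. Mfge8, which bridges phosphatidylserine to integrins through its RGD motif, was at 604, 735 and 187 CPM in WT and at 744, 530 and 368 CPM in FOXO3 KO. Its groups overlapped widely, with a log2 difference of 0.11 (SE 0.52, adjusted p = 0.971 by edgeR) that turned to -0.28 without WT 3 and to -0.18 without FOXO3 KO 1, and was 0.13 without the library labelled FOXO3 KO 2. Gas6 made up 6.95%, 7.12% and 3.39% of the summed ligand level per kilobase in WT and 10.3%, 9.22% and 14.2% in FOXO3 KO, without overlap. Mfge8 made up 67.2% to 75.4% of that sum in 4 of the libraries, 53.6% in FOXO3 KO 3 and 37.0% in WT 3, where Pros1 made up 59.6%. The Gas6 share is built from the Gas6 values above, whose groups were separate, and moves with Mfge8 and Pros1. It is therefore not a further result.

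Cd300lf, an inhibitory-type immunoreceptor that binds phosphatidylserine, was at 216, 282 and 86.8 CPM in WT and at 231, 312 and 165 CPM in FOXO3 KO. The groups overlapped, with the library labelled FOXO3 KO 2 highest and WT 3 lowest of the 6. The fitted log2 difference was 0.28 (SE 0.45, adjusted p = 0.904 by edgeR), 0.02 without the library labelled FOXO3 KO 2 and -0.07 without WT 3. Elmo1, the engulfment adaptor, was the steadiest of the 8, at 82.7, 89.7 and 96.6 CPM in WT and at 94.4, 94.6 and 102 CPM in FOXO3 KO. Its highest value was 1.23 times its lowest, against 1.84 times for Mertk and 6.36 times for Gas6. For Elmo1 the log2 difference came to 0.11 (SE 0.10, adjusted p = 0.859 by edgeR), 0.13 without the library labelled FOXO3 KO 2, and 0.18 without WT 3, where the groups did not overlap. Without WT 3, the FOXO3 KO values lay above both WT values for 3 of the 8 genes (Gas6, Pros1 and Elmo1), against 13.5% of the 15788 genes then tested.

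**Figure D3:**
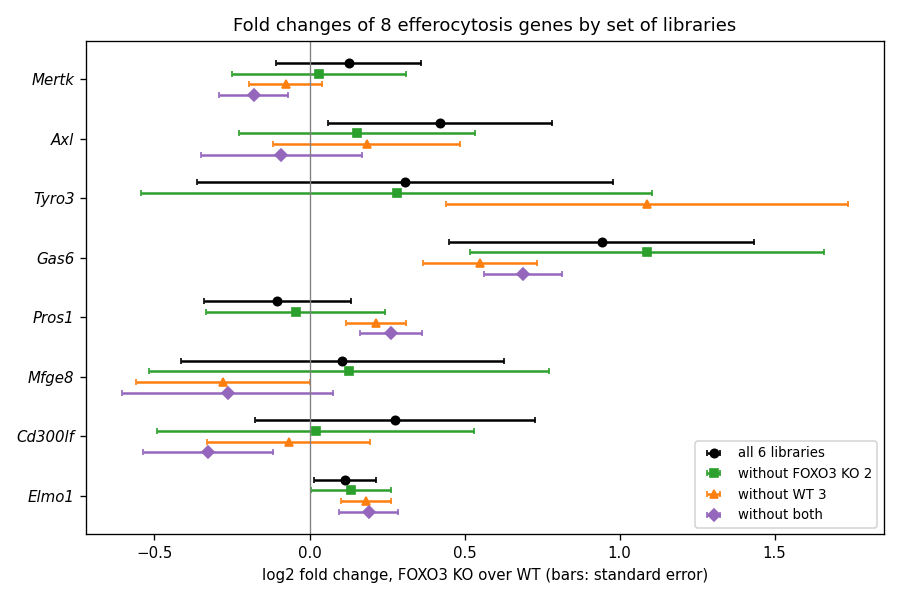
Log2 fold change of FOXO3 KO over WT (horizontal) with its standard error from edgeR for the 8 genes, over all 6 libraries (black), without the library labelled FOXO3 KO 2 (green), without WT 3 (orange) and without both (purple; Tyro3 was then not tested). Gas6 stays between 0.55 and 1.09 in the 4 sets, while Mertk, Mfge8 and Cd300lf cross from above 0 to below it once WT 3 is left out and Pros1 crosses the other way.

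The position of WT 3, the library with the resident macrophage genes, differed widely between these 8 genes. WT 3 was the lowest of the 6 libraries for 5 of the 8, against 37.5% of all genes tested, and the highest for 2 (Pros1 and Tyro3), against 37.2%. On the log2 scale of WT 3 over the median of the other 5 libraries, Gas6 was at -2.09, Mfge8 at -1.69, Cd300lf at -1.41, Axl at -0.97 and Mertk at -0.65. Elmo1 was at 0.03, Pros1 at 0.70 and Tyro3 at 1.15. The receptors and ligands thus did not shift together in WT 3, since the TAM ligands Gas6 and Pros1 lay on opposite sides. Timd4, a phosphatidylserine receptor of resident macrophages that was among the markers of that list, was at 318 CPM in WT 3 and at 12.03 to 51.2 CPM in the other 5. Since 1 library shows this position, it has no replicate, and the part of resident macrophages, B cells and other cells in it was not tested. WT 3 was also the only WT library on its side of the Xist split, whose part was not tested either.

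**Figure D4:**
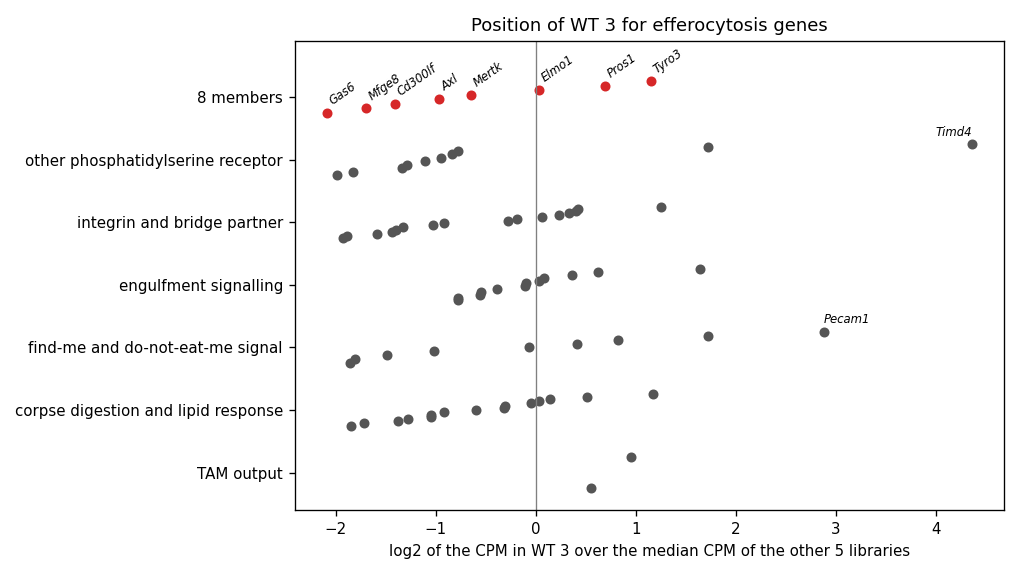
Log2 of the CPM in WT 3 over the median CPM of the other 5 libraries (horizontal) for the 8 genes (red) and for the tested genes of each other role in efferocytosis (grey), with a point for each gene. Gas6 (-2.09) lies at the low end and Tyro3 (1.15) at the high end of the 8, while Timd4 and Pecam1 lie farthest to the right among the others.

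Other genes of efferocytosis were taken as a list of 69 genes in 6 roles, of which 64 were tested. The roles were broad. That of other phosphatidylserine receptors also held the adaptor Tyrobp, and that of integrins and bridge partners also held Vkorc1, Ggcx and Adam17. In no role did a gene pass an adjusted p under 0.05 in edgeR, and 3 of the 64 had an unadjusted p under 0.05 (Itgav, Cx3cr1 and Ppard), against 5.68% of all genes. The median log2 fold change of the 64 was 0.06 (0.04 without the library labelled FOXO3 KO 2, and -0.0073 over all genes tested), with 41 higher and 23 lower in FOXO3 KO, where 48.8% of all genes were higher. Without WT 3 the median of these 64 was -0.0095 and 31 of the 64 were higher, against 50.7% of all genes. The FOXO3 KO values all lay above the WT values for 6 of the 64, against 7.0% of all genes, and all below for 0, against 5.36%. Without the library labelled FOXO3 KO 2 this held for 7 of the 64 (the same 6 and Vav1), against 11.0% of all genes, and for 0 below, against 9.23%. Without WT 3, 13 lay above (13.5% of all genes) and 8 below (11.9%). By role, 14 of 16 integrins and bridge partners were higher in FOXO3 KO, 6 of 10 other phosphatidylserine receptors, 8 of 12 genes of engulfment signalling, 4 of 9 of find-me and do-not-eat-me signals, 7 of 15 of corpse digestion and lipid response and 2 of 2 of TAM output, with 0 of these past the test. Without WT 3 these counts were 9 of 16, 3 of 10, 9 of 12, 4 of 9, 4 of 15 and 2 of 2. Without FOXO3 KO 2 they were 12 of 16, 4 of 10, 8 of 12, 4 of 9, 8 of 15 and 2 of 2. Among all 64, 38 were then higher, against 47.6% of all genes. Among the 10 tested genes of the phosphatidylserine receptor role, the groups over all 6 libraries were separate only for Stab1, a scavenger receptor for phosphatidylserine. Stab1 was at 213, 202 and 118 CPM in WT and 282, 227 and 269 CPM in FOXO3 KO (log2 difference 0.55, SE 0.24, adjusted p = 0.839 by edgeR). Its log2 difference was 0.64 without the library labelled FOXO3 KO 2 and 0.34 without WT 3. Among the 16 tested integrins and bridge partners, the groups over all 6 libraries were separate only for Itgav, the alpha v subunit of the integrins that bind Mfge8. Itgav was at 113, 120 and 72.7 CPM in WT and at 158, 148 and 159 CPM in FOXO3 KO (log2 difference 0.61, SE 0.20, adjusted p = 0.774 by edgeR), with 0.64 without the library labelled FOXO3 KO 2 and 0.42 without WT 3. The FOXO3 KO libraries lay close together for Itgav, and the library labelled FOXO3 KO 2 lay with the other two. Itgb5, which pairs with Itgav, had overlapping groups, at 213, 250.9 and 52.8 CPM in WT and 201, 182 and 165 CPM in FOXO3 KO. Its log2 difference was 0.09 over all libraries and -0.33 without WT 3, where the FOXO3 KO values lay below both WT values.

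Of 12 tested genes of engulfment signalling, 2 had all FOXO3 KO values above WT, against 7.0% of all genes tested. Dock1, the exchange factor that works with Elmo1, was at 69.3, 62.8 and 41.6 CPM in WT and at 81.2, 71.3 and 80.6 CPM in FOXO3 KO (log2 difference 0.42, SE 0.20, adjusted p = 0.839 by edgeR), with 0.48 without the library labelled FOXO3 KO 2 and 0.24 without WT 3. Bcar1, a scaffold of the Crk pathway, was at 0.554, 0.776 and 0.951 CPM in WT and at 1.03, 1.75 and 1.049 CPM in FOXO3 KO. It rested on 20 to 48 counts per library, and before scaling WT 3 (34 counts) was above FOXO3 KO 1 (29 counts). Its log2 difference of 0.74 (SE 0.36, adjusted p = 0.839 by edgeR) was 0.45 without the library labelled FOXO3 KO 2, the highest of the 6, and 0.95 without WT 3. Of 9 genes of find-me and do-not-eat-me signals, Cx3cr1, the receptor for the find-me chemokine fractalkine, was at 28.2, 29.5 and 11.7 CPM in WT and at 45.6, 41.2 and 57.8 CPM in FOXO3 KO. The log2 difference was 1.06 (SE 0.36, adjusted p = 0.788 by edgeR), 1.16 without the library labelled FOXO3 KO 2 and 0.75 without WT 3. Of 15 genes of corpse digestion and lipid response, Ppard, a nuclear receptor that responds to lipids, was at 24.5, 21.0 and 20.5 CPM in WT and at 25.5, 28.2 and 30.6 CPM in FOXO3 KO (log2 difference 0.35, SE 0.12, adjusted p = 0.827 by edgeR), with 0.35 without the library labelled FOXO3 KO 2 and 0.31 without WT 3. The 2 tested genes of TAM output, Socs1 and Socs3, both had overlapping groups, and Socs3 was separate without WT 3 (log2 difference 1.18, against 0.64 over all libraries). Adam17, the protease that sheds Mertk from the cell surface, was at 301, 346 and 169 CPM in WT and at 329, 320 and 292 CPM in FOXO3 KO, also with overlap (log2 difference 0.21, and -0.03 without WT 3). Across the list WT 3 was the lowest library for 37 of the 64 genes, against 37.5% of all genes tested. It was the highest for 19, against 37.2%.

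For each of the 8 genes, the genes with the most similar pattern over the 6 libraries were found by the root mean square difference of log2 CPM centred on each gene's mean, among genes with a mean of at least 5 CPM. Gas6 was nearest to Gm34084 (0.12 log2 units), Igf2bp2 (0.13) and Havcr2 (0.20), of which Havcr2, encoding TIM-3, was at 24.5, 36.1 and 8.53 CPM in WT and 51.4, 33.8 and 33.6 CPM in FOXO3 KO. Among the genes near Axl were Gm5431 (0.16) and Scarf1 (0.17), a scavenger receptor that is itself in the efferocytosis list. Mertk was nearest to Zfyve9, Fam174a and Ric1 (0.05 each), Mfge8 to Cdk18 (0.10), Bsn and Lrrc27 (0.11 each), and Cd300lf to Zfp503 (0.07), Gm15931 (0.08) and Kif3a (0.11). Pros1 was nearest to Arl2bp (0.03), Bin2 (0.04) and Tsr1 (0.05), and Elmo1 to Pde12 and Erg28 (0.02 each) and 3830406C13Rik (0.03). Tyro3, at few counts, was nearest to Slfn1 (0.20), Rtp4 and Tgfbr3 (0.23 each). Among the 8 themselves, Pros1 and Elmo1 (0.23), Mfge8 and Cd300lf (0.30) and Mertk and Axl (0.32) were the closest pairs, and Tyro3 and Mfge8 (1.35) the farthest. Mertk and Elmo1 followed at 0.33. The measure is small for pairs of genes that vary little. Pros1 and Elmo1 had their highest values in different libraries, WT 3 and FOXO3 KO 3. The patterns share the same 6 libraries and are given as a description.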

How the data were processed

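RNA-seq of 6 mouse libraries was analysed from the table that the authors deposited, which holds estimated counts for 54648 gene symbols with no normalization. The submitters' processing notes name STAR 2.6.1d, kallisto 0.46.0, DESeq2 and mm10 without their roles, and no source used here gives the annotation. The share of deposited values that were whole to within 0.01 was 81.4%. Values were rounded for the tests.

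FOXO3 KO was compared with WT by edgeR 4.0.16 in R 4.3.3 (filterByExpr, TMM factors of 0.936 to 1.10, glmQLFit and glmQLFTest), and p-values were adjusted (Benjamini-Hochberg) across the 15608 genes. A gene was called at an adjusted p under 0.05. Standard errors were the absolute log2 difference divided by the root of the F statistic. The common dispersion was 0.103. Alternatives were DESeq2 1.42.0, limma-voom (limma 3.58.1), DESeq2 size factors, no factors, no filter, a filter of 10 counts in 3 or more libraries, a block for replicate numbers, a covariate for the split by Xist, and each library left out. The fits without both WT 3 and FOXO3 KO 2, and without FOXO3 KO 2 with the covariate, were chosen after seeing the data. The fitting code was tested on simulated counts.

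Exon lengths and positions came from GENCODE M21, where 98.8% of symbols matched a single gene, and start-site windows from RefSeq (GRCm38.p6). The members and lists were chosen with earlier results of these data known. Named are the 8 genes, Foxo3, in each role up to 3 tested genes of largest fold change with separate groups, the most abundant markers and the 3 nearest patterns, of which an item is not reported here. Itgb5, Adam17, Vav1, Socs1, Socs3, Timd4, Pecam1, Gata6, Ly6g, S100a8, Cxcr2 and the overlapping genes were named outside this rule, after their values were seen. So were Mmp8, Retnlg, Ltf, Tyrobp, Vkorc1, Ggcx, Upk3b, Lrrn4, Upk1b, Krt8, Krt18, Msln and Siglecf. Xcr1, Clec9a, Itgae, Flt3, Zbtb46, Cd209a, Col1a1, Dcn, Pdgfra, Pdgfrb, Lum and Dpt were named outside it too. Python 3.11.15 with numpy 2.4.6 and pandas 2.3.3 was used for the tables. The study's other data were not analysed here.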

Additional observations from a re-analysis of the deposited data

How the results depend on the processing

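No member and no gene of the wider efferocytosis list was called under any of the 16 alternatives, and of 127 alternative fold changes of the 8 genes 115 kept their direction, among them all those of Gas6 and Elmo1. Of all genes, 129 were called by DESeq2, 4 without both WT 3 and the library labelled FOXO3 KO 2, and 17 without the latter with the Xist covariate, against 0 in the edgeR test over all libraries. With single libraries left out, log2 fold changes ranged from -0.08 to 0.32 for Mertk, 0.15 to 0.68 for Axl, -0.0833 to 1.09 for Tyro3 (-0.05 without FOXO3 KO 3), -0.25 to 0.21 for Pros1, -0.28 to 0.47 for Mfge8 and -0.07 to 0.64 for Cd300lf, and the medians from 0.13 to 0.40 for the members and 0.013 to 0.27 for the wider list, taken over the genes each fit tested. Without both libraries they were -0.18 for Mertk, -0.0904 for Axl, 0.26 for Pros1, -0.26 for Mfge8 and -0.33 for Cd300lf, and the medians were -0.0904 for the members and -0.0055 for the wider list, fewer libraries being fitted there. The cause was not tested. For Gas6 the alternatives gave 0.55 to 1.52, with adjusted p between 0.185 and 0.9997.

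Same-numbered libraries did not deviate together throughout (r of deviations from the group means, across genes, 0.256, -0.0722 and 0.524 for numbers 1, 2 and 3), so the numbers were not taken as pairs. With the replicate number as a block, 0 members were called, 0 of all genes were called, and the log2 fold change of Gas6 was 1.13. Tyro3 had the fewest counts of the 8 genes, 3 to 22 a library, and the effect of depth was not tested.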
